A study of Drosophila melanogaster with 54 samples.

Results

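The cellularization genes described here are slam, nullo, bnk, Sry-alpha, halo and Z600, 6 of the 17481 gene entries counted in each embryo, chosen by name for their known part in forming the first cells of the Drosophila embryo. Of the 6 members, 5 had reads and were tested, and Sry-alpha had 0 reads in all 54 embryos. RNA-seq was carried out on 54 single whole embryos of Drosophila melanogaster, staged by their morphology under a stereomicroscope. The groups were 5 embryos of stage 4, 9 of stage 5, 5 of stage 6, 5 of stage 8, 9 of stage 10, 5 of stage 12, 8 of stage 13 and 8 of stage 15. No treatment or mutation is named in the labels, which also give no strain, sex, parents or collection, and the p-values therefore reflect how much these single embryos varied, whatever the source. The series concerns dosage compensation of the X chromosome, and the comparisons of stages given here follow the appearance and loss of the members' RNA.

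The fly embryo first divides its nuclei in a shared cytoplasm, the syncytial blastoderm of stage 4. At stage 5 membrane furrows grow in between the nuclei and enclose each one in a cell, and at stage 6 gastrulation begins. Part of this process depends on RNAs that the embryo's own genes make in a short pulse, on top of the supply laid down by the mother. The proteins act at the furrow tip (slam, nullo, bnk and Sry-alpha), on the transport of lipid droplets (halo) and on the pause in cell division that accompanies furrow growth and gastrulation (Z600).

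The gene reads of an embryo numbered 1632448 to 12863155, with a median of 4713817, so that 1 CPM (1 count in 1000000 gene reads, after scaling of the libraries) rested on about 4.71 reads at the median depth. Intervals cover counting error only. Marker genes followed the labelled order of the first stages. The summed level of 6 maternal RNAs was 4486 to 6734 CPM at stage 4, 74.1 to 190.3 CPM at stage 5 and 50.6 to 142 CPM at stage 6. That of 6 segment polarity genes was 0.367 to 0.795, 1039 to 1701 and 1942 to 2240 CPM at the same stages. CPM is a share of the RNA of a whole embryo, so fewer cells with a transcript and less of it per cell cannot be told apart.

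The furrow gene slam was the most abundant member, per base of exon too. It encodes a protein of the furrow tip that is needed for membrane growth there. The annotation places it (FBgn0043854) on 2L at 6372388 to 6377284, plus strand, with 4117 exon bases in 3 exon blocks; all positions are those of BDGP6.54, release 115. In the stage 5 embryos slam had 5133 to 8632 CPM, with a median of 6239, against 200.4, 206, 219, 233 and 239.7 CPM in the stage 4 embryos. Each of the stage 5 embryos lay far above every stage 4 embryo, though slam was already present in all 5 of these. The mean was 6370 ± 1176 CPM at stage 5 (SD, n = 9), the seventh highest of all entries, and 219.7 ± 16.9 CPM at stage 4 (n = 5). The log2 change was 4.86 ± 0.25 (SE; edgeR quasi-likelihood test, Benjamini-Hochberg adjusted p = 7.34e-24).

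One stage later slam was nearly gone. Levels at stage 6 were 47.4, 59.5, 60.6, 73.0 and 158 CPM, against the 5133 to 8632 CPM of stage 5, and the highest belonged to embryo H. The groups were far apart, with a log2 change of -6.33 ± 0.28 (adjusted p = 8.53e-26). At stage 8 the 5 embryos had 15.9 to 28.9 CPM, below every stage 6 embryo, a change of -1.97 ± 0.26 against stage 6 (adjusted p = 7.63e-08). Stage 10 embryos had 3.39 to 15.3 CPM with a median of 9.01, a further change of -1.29 ± 0.26 against stage 8 (adjusted p = 4.74e-05). Low levels of slam then persisted, with means of 5.01 ± 2.16, 3.53 ± 1.04 and 2.27 ± 1.08 CPM at stages 12, 13 and 15. In the directional libraries 99.1%, 91.9% and 95.7% of these late slam reads lay on the strand of the gene.

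**Figure D1:**
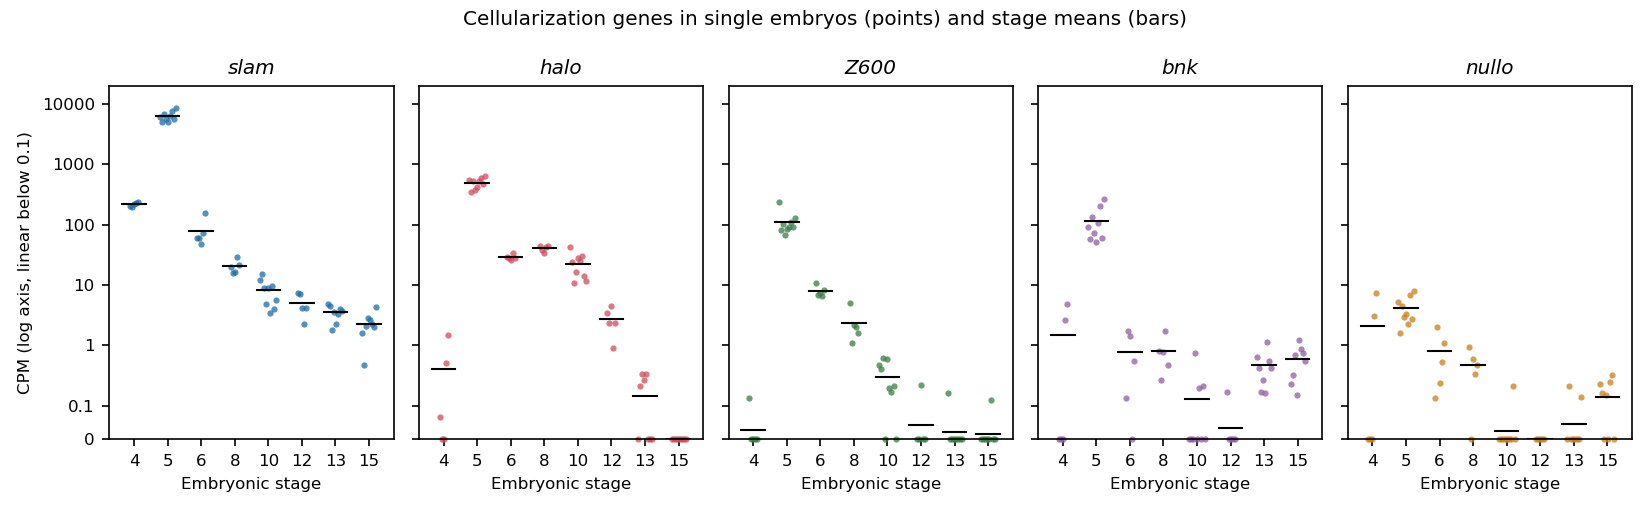
Level of each member in every embryo, in CPM on a log axis that is linear below 0.1, by embryonic stage; points are embryos and bars are stage means. All 5 genes have their highest mean at stage 5, where slam averaged 6370 CPM and nullo 4.18 CPM, while slam alone is above 200 CPM in every embryo of stage 4. The rise of nullo from stage 4 to stage 5 did not pass the test.

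The gene bnk (bottleneck), whose protein restrains the contraction of the actomyosin network until the furrows have passed the nuclei, had the lowest fitted change of the members at stage 6, though its ratio to slam did not pass the test. It (FBgn0004389, 3R 31193362 to 31194389, plus strand) is a single exon of 1028 bases inside the span of mesh, which runs on the opposite strand and shares 0 exon bases with it. At stage 5 bnk had 51.9 to 268 CPM with a median of 93.3, against 0 CPM in stage 4 embryos B, C and D, 2.65 CPM in G and 4.77 CPM in H. The stage 5 embryos spread over a wide range but none came near the stage 4 embryos. Means were 117 ± 74.8 CPM (n = 9) and 1.48 ± 2.17 CPM (n = 5), with a log2 change of 6.59 ± 0.54 (adjusted p = 2.95e-16). Without stage 4 embryo G or H the change was 7.18 or 7.61.

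At stage 6 the bnk levels were 0, 0.136, 0.553, 1.42 and 1.70 CPM, from 15 reads in all. Every one of them was below the lowest stage 5 embryo, and the log2 change was -7.37 ± 0.61 (adjusted p = 4.07e-15), the second lowest of 9783 genes tested. Stage 8 embryos held 0.269 to 1.70 CPM, from 18 reads, and did not pass the test against stage 6 (log2 change 0.16 ± 1.03, adjusted p = 0.963). In the 9 embryos of stage 10 there were 4 reads, and that change did not pass against stage 8 either (-2.58 ± 1.28, adjusted p = 0.0891). No later read of bnk with a known strand lay on its own strand. Stages 12, 13 and 15 had 1, 23 and 32 reads, and in the directional libraries 0 of 1, 0 of 9 and 0 of 14 lay on the strand of bnk, which is opposite to that of mesh. The other reads of stages 13 and 15 came from libraries without strand information.

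The X-linked gene nullo, needed for stable actomyosin at the furrow tips, was the least abundant member with reads, per base of exon too. It (FBgn0004143, X 7049476 to 7050321, plus strand) is a single exon of 846 bases inside the span of CG12541 on the opposite strand, with 0 shared exon bases. In stage 5 embryos nullo had 1.61 to 8.05 CPM with a median of 3.35, against 0 CPM in stage 4 embryos B, C and D, 3.02 CPM in G and 7.33 CPM in H. The ranges overlapped, and stage 4 embryo H exceeded every stage 5 embryo but J. The log2 change was 1.16 ± 0.60 and did not pass the test (adjusted p = 0.0711). It passed without stage 4 embryo G (1.48, adjusted p = 0.0417), without H (2.53, adjusted p = 0.000401) or without both (7.45, adjusted p = 4.01e-10), the last chosen after seeing the data. With both left out, stage 4 held no nullo read, so the size of 7.45 depends on the small count the fit adds.

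Stage 6 embryos had nullo at 0.136, 0.237, 0.535, 1.11 and 1.98 CPM, from 15 reads, and embryo C with 1.98 CPM lay inside the range of stage 5. The fall against stage 5 was called all the same, with a log2 change of -2.51 ± 0.74 (adjusted p = 0.00352), or -3.17 without stage 6 embryo C. Stage 8 held 13 reads in 4 of 5 embryos, which did not pass the test against stage 6 (-0.44 ± 0.99, adjusted p = 0.834). At stage 10 a single read was found in the 9 embryos, 20.5-fold lower than at stage 8 by reads over library size (95% interval 3.07 to 870, adjusted p = 0.0317). That call was lost without stage 8 embryo B (adjusted p = 0.121) or stage 10 embryo H (0.0512). Stages 12, 13 and 15 had 0, 2 and 8 reads. Of the 4 reads in directional libraries at stage 15, 2 lay on the strand of nullo.

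The stage 4 embryos with nullo and bnk reads also stood apart in marker genes. The pair of mesoderm genes, twi and sna, summed to 1.13 CPM in embryo G and 6.24 CPM in H, against 0 to 0.133 CPM in B, C and D. The 3 early neuroblast genes summed to 0.756 and 4.22 CPM in G and H, against 0 CPM in B, C and D. The 6 maternal RNAs were lowest there, with 4985 and 4486 CPM in G and H, against 6223 to 6734 CPM in the other three. The 4 late differentiation genes summed to 1.39 and 2.02 CPM in G and H, against 0.663 to 0.801 CPM in the others, and the 3 pole cell genes to 1010 and 950.1 CPM, against 1088 to 1302 CPM. The gene nos is on both the pole cell and the maternal list, so those sums are not separate. Segment polarity genes did not follow this, with 0.63 CPM in G and 0.367 CPM in H, against 0.534 to 0.795 CPM in the others, and neither did Z600, with 0 CPM in G and H. The part of these differences in the nullo and bnk levels was not tested.

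Sry-alpha (FBgn0003510, 3R 30039719 to 30043071, plus strand), which encodes an actin-organizing protein of the furrow, could not be measured. In this release all 3300 of its exon bases, 100%, are shared with Sry-beta on the same strand, and counting with STAR leaves a read that falls in more than one gene unassigned. Sry-beta also had 0 reads in all 54 embryos, while Sry-delta, which starts 269 bases beyond the end of Sry-alpha, had 21709 reads. A count of 0 here is thus no statement on the RNA of Sry-alpha.

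The gene halo, which sets the direction in which lipid droplets travel along microtubules by way of kinesin, was nearly absent at stage 4 and abundant at stage 5. It (FBgn0001174, 2L 1517533 to 1518148, minus strand) has a single exon of 616 bases. Stage 5 embryos had 345 to 651 CPM of halo with a median of 529, against 0.0663, 0, 0, 0.504 and 1.47 CPM in stage 4 embryos B, C, D, G and H. Nothing at stage 4 approached the stage 5 range, and embryos G and H were again the highest of stage 4. Means were 497 ± 102 CPM (n = 9) and 0.407 ± 0.629 CPM (n = 5), a log2 change of 10.59 ± 0.42 (adjusted p = 1.99e-26), or 11.65 without stage 4 embryo H.

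The stage 6 levels of halo were 25.9, 28.1, 28.5, 28.9 and 34.2 CPM, against 345 to 651 CPM at stage 5. The groups did not overlap and the log2 change was -4.09 ± 0.27 (adjusted p = 1.23e-17). Stage 8 embryos had 33.7, 38.3, 42.2, 43.7 and 44.8 CPM, which did not pass the test against stage 6 (0.48 ± 0.27, adjusted p = 0.226) but did in a fit of these 2 stages alone (0.47, adjusted p = 0.00905). Stage 10 embryos ranged from 10.9 to 42.2 CPM with a median of 24.5, and the change against stage 8 was -0.83 ± 0.23 (adjusted p = 0.00268) with overlapping ranges. The mean was 2.72 ± 1.36 CPM at stage 12 and 0.142 ± 0.156 CPM at stage 13, and stage 15 had 0 reads in 8 embryos, at least 382-fold lower than stage 10 with 3 reads over the stage as the limit.

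The gene Z600, also known as frühstart, encodes a small inhibitor of mitotic cyclins that holds back division in the gastrulating embryo. It (FBgn0004052, 3L 15509061 to 15509513, plus strand) is a single exon of 453 bases, of which 69, or 15.2%, are shared with gdl and gdl-ORF39, so that its counts leave out reads there. Stage 5 embryos had 68.0 to 239 CPM of Z600 with a median of 91.6, against 0.133 CPM in stage 4 embryo B and 0 CPM in the other four. With 2 reads at stage 4, the ratio by reads over library size was 2635-fold higher at stage 5 (95% interval 729 to 21760, adjusted p = 1.8e-28). Embryo B was the highest of stage 5, and the next had 131 CPM. Mean Z600 at stage 5 was 111 ± 51.2 CPM (n = 9).

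At stage 6 Z600 had 6.68, 6.80, 7.35, 8.30 and 10.98 CPM. These lay well below the stage 5 range, with a log2 change of -3.77 ± 0.25 (adjusted p = 1.49e-18). The decline then went on at each step. Stage 8 embryos had 1.08, 1.63, 2.04, 2.14 and 5.04 CPM, all below stage 6, a change of -1.63 ± 0.32 (adjusted p = 1.16e-04), or -2.22 without stage 8 embryo B, which was the highest. Stage 10 held 11 reads in 7 of 9 embryos, all below stage 8, with a change of -3.05 ± 0.47 (adjusted p = 2.72e-07), or -2.46 without stage 8 embryo B. Of those 11 reads 6 lay on the strand of Z600. The later stages had 1 read each.

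Embryo B also differed from the others of its stage in short genes. Over the 147 genes with under 600 exon bases that averaged 10 CPM or more at stage 5, the median log2 ratio of embryo B to the mean of the others was 0.35, against 0.14 for 1272 genes of 600 to 1500 bases and 0.02 for 4072 longer genes. For Z600 it was 1.32, and 2 of the 147 short genes exceeded that. At stage 8 the medians of embryo B were 0.27, 0.06 and 0.00 in the same length classes and Z600 had 1.495, exceeded by 1 of 144 short genes. At stage 6 the medians were 0.40, 0.15 and 0.04, and Z600 had 0.59, exceeded by 46 of 141 short genes. The part of gene length in the high Z600 of embryo B was not tested.

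Counted over the members, 4 of the 5 tested (slam, bnk, halo and Z600) were higher at stage 5 than at stage 4, in a comparison in which 52.1% of the 9783 genes tested were higher. The filter kept genes with enough reads in at least as many embryos as the smallest stage holds, and the members could pass it through stage 5, where they are high, so this count describes them and supports nothing further. The median log2 change of all genes was 0.72 there, and 0.34 to 0.87 under other scalings. Relative to it slam was 4.14 higher, bnk 5.87 and halo 9.87. In rank from the highest change, halo stood at 59, bnk at 622, slam at 1183 and nullo at 3619 of 9783, while Z600 was not ranked because of its 2 reads at stage 4.

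The fall at stage 6 was called in 5 of 5 tested members, against 21.5% of all genes. Stages 6, 8 and 10 were each set against the same stage 5 embryos, so the next counts are not independent of this one. The members could pass the filter through stage 5, where they are high, so the counts against stage 5 describe them and support nothing further. At stage 8, 5 of 5 were lower than at stage 5, against 26.9% of all genes, and at stage 10 again 5 of 5, against 34.3%. Between stages 6 and 8, only slam and Z600 fell, 2 of 5, where 8.64% of all genes were lower (960 genes higher and 845 lower, or 1201 and 687 with no scaling beyond the total). Between stages 8 and 10, slam, nullo, halo and Z600 fell, 4 of 5, against 24.9%. In a fit of stages 8 and 10 alone, nullo, bnk and Z600 did not pass its filter on low counts, and slam and halo, the 2 genes tested, both fell.

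Between stages 10 and 15, slam fell by a further 1.86 ± 0.31 on the log2 scale (adjusted p = 2.69e-07). With halo and Z600 it made 3 of 5 called lower, where 38.9% of all genes were lower. Z600 had 1 read at stage 15 against 11 at stage 10, 15.1-fold lower by reads over library size (95% interval 2.19 to 648, adjusted p = 0.00347). Neither nullo nor bnk passed, with adjusted p = 0.233 and 0.062. The bnk change of 2.30 ± 1.16 passed without stage 10 embryo E (2.95, adjusted p = 0.0375) or stage 15 embryo D (2.43, adjusted p = 0.04997), and its stage 15 reads in directional libraries were those on the strand of mesh.

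What was left of each gene was also taken as a share of its own stage 5 mean. At stage 6, 1.25% of slam (embryos 0.744 to 2.48%), 0.654% of bnk (0 to 1.46%), 5.86% of halo (5.21 to 6.89%), 7.21% of Z600 (6.01 to 9.87%) and 19.1% of nullo (3.24 to 47.4%) was left. The ranges of slam and bnk overlapped each other, as did those of halo and Z600, and slam and bnk lay below halo and Z600. Without embryo C the share of nullo was 12.0%. At stage 8 the shares were 0.322% for slam, 0.688% for bnk, 8.16% for halo, 2.14% for Z600 and 11.1% for nullo. By stage 10 they were 0.127%, 0.111%, 4.53%, 0.266% and 0.569% in the same order, where bnk rested on 4 reads and nullo on the single read of embryo I. Without embryo E, which held 2 of its reads, the share of bnk was 0.0444%, and without embryo I no read of nullo was left. The embryo ranges of halo and Z600 overlapped at stage 6 and no longer did at stage 10, where halo embryos ranged from 2.19 to 8.49% and Z600 embryos from 0 to 0.544%.

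**Figure D2:**
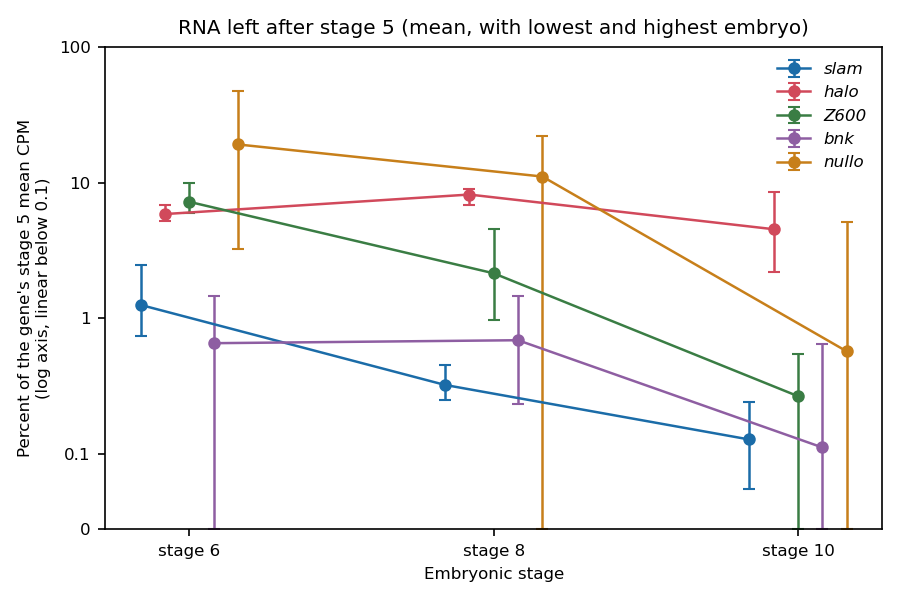
Percent of each gene's stage 5 mean CPM found at stages 6, 8 and 10, on a log axis that is linear below 0.1; points are stage means and bars run from the lowest to the highest embryo. At stage 6 slam and bnk stand at 1.25% and 0.654%, below halo, Z600 and nullo, and at stage 10 halo stands at 4.53%, above the other 4 genes.

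Whether members were lost at different speeds was tested on the log2 ratio of 2 genes within the same embryo, which does not depend on library scaling. Of 10 pairs, 7 changed between stages 5 and 6 (exact two-sided permutation test over embryos, 2002 arrangements, Benjamini-Hochberg over the 10 pairs). The ratio of slam to halo was 1.32 ± 0.65 at stage 6 (SD, n = 5) and 3.69 ± 0.14 at stage 5 (n = 9), a difference of -2.37 (exact adjusted p = 0.000833, from the smallest p the test can give, 0.0004995). Every stage 6 embryo lay below every stage 5 embryo in this ratio. The same p and the same lack of overlap held for slam over Z600 (-2.74), bnk over halo (-3.42), bnk over Z600 (-3.79), slam over nullo (-3.90) and nullo over bnk (4.94). So slam and bnk lost more than halo, Z600 and nullo in these embryos. With overlap, nullo lost less than halo (1.52, exact adjusted p = 0.0114). At stage 6 nullo and bnk had 15 reads each over the 5 embryos. The size of a difference with either therefore depends in part on the 0.5 reads added.

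The remaining 3 pairs did not pass the threshold. These were slam over bnk (1.05, exact adjusted p = 0.144), nullo over Z600 (1.16, 0.0762) and halo over Z600 (-0.37, 0.136). Each passed with a single embryo left out, slam over bnk without stage 6 embryo C (1.55) or D (1.56), nullo over Z600 without stage 6 embryo B (1.70), or with 1 read added in place of 0.5 (1.35, exact adjusted p = 0.0275), and halo over Z600 without stage 5 embryo B (-0.50). Between stages 8 and 10, 0 of 10 pairs passed. At stage 10 nullo had 1 read in all and bnk had 4, so ratios with either rested largely on the 0.5 reads added. Those pairs cannot show whether the later loss differed. At an unadjusted p under 0.05 stood halo over Z600 (difference 1.61, exact p = 0.00699, adjusted p = 0.0699) and slam over Z600 (1.14, exact p = 0.024, adjusted p = 0.12). Both passed on reads of the gene strand alone (2.20 and 1.73, exact adjusted p = 0.0275 each), and halo over Z600 also without stage 10 embryo D (1.85, exact adjusted p = 0.00777).

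Per kilobase of exon, the stage 5 levels ran from slam with 1547 ± 286 CPM through halo with 806 ± 166, Z600 with 246 ± 113 and bnk with 113 ± 72.8 to nullo with 4.95 ± 2.59 CPM (SD, n = 9). In this order the embryo ranges of Z600 and bnk overlapped and those of the other neighbours did not. Spread between embryos also differed, with a coefficient of variation of 18.4% for slam, 20.6% for halo, 46.0% for Z600, 52.3% for nullo and 64.2% for bnk. That of Z600 rested on embryo B: without it, left out after seeing the data, Z600 had 95.3 ± 19.5 CPM (SD, n = 8) and a coefficient of variation of 20.5%, close to the 20.6% of halo. Counting error is part of each coefficient. It weighs more for nullo, with 5 to 28 reads per embryo, than for slam, with 15940 to 33710.

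Within stage 5, slam and bnk varied together. Embryos H and J had the most of both, with 7609 and 8632 CPM of slam and 206.5 and 268 CPM of bnk, while C and F had the least slam, 5134 and 5133 CPM, with 58.9 and 51.9 CPM of bnk. Over the 9 embryos Pearson's r was 0.991 (exact permutation adjusted p = 5.51e-05 over 20 relations) and Spearman's rho 1.00 (exact adjusted p = 0.00011), so the 2 genes ordered the embryos alike. Without H and J, the embryos farthest from the median of slam, r was 0.978 (exact adjusted p = 0.00397).

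Other relations among the members were weaker or rested on few embryos. For slam and halo r was 0.894 and rho 0.85 (exact permutation adjusted p = 0.0129 and 0.0304), with r = 0.825 without H and J (exact adjusted p = 0.127). For bnk and halo r was 0.854 and rho 0.85 (exact adjusted p = 0.0204 and 0.0304), with r = 0.731 without H and J (0.206). Of nullo, r was 0.822 with slam, 0.807 with bnk and 0.812 with halo (exact adjusted p = 0.0261 each), but rho was not called (0.0906, 0.0906 and 0.0574), nor was r without the 2 farthest embryos (0.367, 0.244 and 0.367). Z600 passed only in rank with halo (rho 0.917, exact adjusted p = 0.0131; r = 0.615), with embryo B far off the others.

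**Figure D3:**
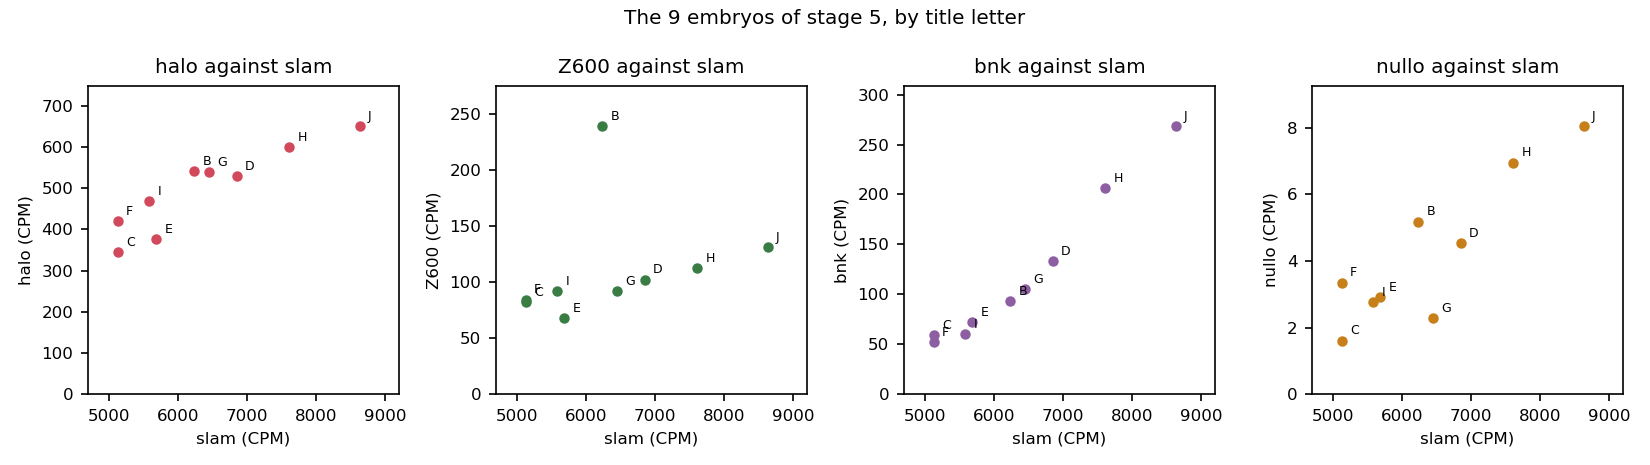
CPM of halo, Z600, bnk and nullo against slam in the 9 embryos of stage 5, each marked with its title letter. In the bnk panel the embryos rise in 1 line from C and F to H and J, and in the Z600 panel embryo B with 239 CPM lies apart from the others at 68.0 to 131 CPM.

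Markers of embryonic progress varied along with slam and bnk at stage 5. The summed segment polarity level was lowest in embryos H and J, with 1039 and 1050 CPM, against 1244 to 1701 CPM in the others. Its r was -0.798 with slam and -0.856 with bnk (exact permutation adjusted p = 0.0261 and 0.0204), and rho was -0.667 with each (exact adjusted p = 0.0906). Without H and J, r was -0.394 with slam and -0.527 with bnk (exact adjusted p = 0.538 and 0.367), so the relation rests on those embryos. In all, 8 of 20 relations passed by r, 4 by rho and 1, slam with bnk, without the 2 farthest embryos. The summed maternal level gave 0 of 5 called, with 1 at an unadjusted p under 0.05 by r, that with nullo (r = 0.733, rho 0.8, exact adjusted p = 0.055 and 0.0553). Without the 2 embryos farthest in maternal level, G and I, its r was 0.842 with slam, 0.837 with bnk and 0.815 with nullo (exact p = 0.021, 0.0222 and 0.0264, exact adjusted p = 0.127 each), against 0.495, 0.545 and 0.733 over all 9. Stage 6 embryo H, with the most slam of its stage, also had the lowest early neuroblast level, 24.6 CPM against 38.4 to 74.5 CPM in the other four, and the lowest maternal level, 50.6 CPM against 74.7 to 142 CPM. Its segment polarity level was the highest, 2240 CPM against 1942 to 2211 CPM. Mesoderm and pole cell genes were lowest in it, at 284.8 and 4.98 CPM, against 377.3 to 454 and 19.4 to 74.6 CPM. Its late differentiation level, 287.9 CPM, lay within the 254.2 to 374.9 CPM of the others. The part of these marker differences in the slam and bnk levels was not tested.

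Genes that act beside the members in cellularization moved both ways at each step. Of 44 genes on 6 lists chosen by role, 24 rose and 16 fell at stage 5 against stage 4, where 52.1% of all genes were higher and 30.6% lower, and with no scaling 22 rose and 21 fell. Their median log2 change was 0.54 beside 0.72 for all genes. At stage 6 against stage 5, 14 rose, 15 fell and 15 did not pass, where 28% of all genes were higher and 21.5% lower, with a median of -0.0026 beside 0.04 for all genes.

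The septin genes, whose products form filaments at the furrow tip, rose in 4 of 5 cases at stage 5, against 52.1% of all genes. Septin5 had 699.7 CPM at stage 5 and 28.9 CPM at stage 4 (4.59 ± 0.20), while Septin4 fell by 5.91 ± 0.23 to 1.04 CPM, against 65.2 CPM at stage 4. The septins pnut and Septin1 rose by 1.26 each. At stage 6, 0 of the 5 were called by edgeR or DESeq2, 0 had an unadjusted p under 0.05, and with no scaling 2 rose. Of all genes, 28% were higher and 21.5% lower at that step.

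Genes of membrane supply and traffic rose in 6 of 11 cases and fell in 2 at stage 5, or rose in 5 and fell in 5 with no scaling. Of all genes 52.1% were higher and 30.6% lower, and the list's median log2 change was 0.53 beside 0.72 for all genes. The golgin gene lva fell by 2.12 ± 0.11 and the exocyst gene Sec5 fell by 1.40 ± 0.10. At stage 6, 4 rose and 5 fell, where 28% of all genes were higher and 21.5% lower. The gene dah, which acts in furrow formation, fell the most of the 44 listed genes at stage 6 after twe of the cell cycle list, with 47.4 CPM against 310.0 CPM at stage 5 (log2 change -2.72 ± 0.14, adjusted p = 9.63e-23). The endosome gene Rab5 fell by 1.37 ± 0.15.

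Junction and polarity genes, which equip the new cells with adherens junctions and an apical domain, rose in 9 of 10 cases at stage 5 (8 rose and 2 fell with no scaling). Of all genes, 52.1% were higher there. Stardust (sdt) had 737 CPM at stage 5 and 31.8 CPM at stage 4, a change of 4.54 ± 0.18. E-cadherin (shg), crb and beta-catenin (arm) rose by 2.51 ± 0.07, 1.86 ± 0.11 and 1.60 ± 0.09. They stayed abundant at stage 6, where 28% of all genes were higher and 21.5% lower. Of the 10, 3 rose and 5 fell, none by more than the 0.62 ± 0.06 of shg. Of those that rose, arm (0.21) lost its call under DESeq2 size factors (0.19, adjusted p = 0.0749) and with the DESeq2 test (adjusted p = 0.0734).

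In the processes that halo and Z600 act in, most listed genes fell at stage 5. All 5 genes of lipid droplet transport fell at stage 5, against 30.6% of all genes, and klar, named here after its values were seen, lost its call under DESeq2 size factors (-0.17, adjusted p = 0.0626) and with the DESeq2 test (adjusted p = 0.061). The perilipin gene Lsd-2 fell by 4.84 ± 0.26 to 31.7 CPM, against 908 CPM at stage 4, the dynein gene Dhc64C fell by 3.06 ± 0.18 and the kinesin gene Khc fell by 1.96 ± 0.14. BicD, a dynein adaptor, fell by 2.76 ± 0.18. Of 10 cell cycle genes 8 fell and 2 rose, where 30.6% of all genes were lower and 52.1% higher. The mitotic phosphatase gene stg fell by 3.28 ± 0.14 to 43.2 CPM, against 420.4 CPM at stage 4, and the inhibitory kinase gene Myt1 fell by 2.78 ± 0.13. Tribbles (trbl), which promotes the breakdown of String, rose by 3.79 ± 0.11 to 629 CPM, against 45.4 CPM at stage 4.

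At stage 6 the cell cycle genes parted. The phosphatase gene twe fell by 2.93 ± 0.26 and trbl by 1.14 ± 0.09, while stg rose by 2.505 ± 0.14 to 246 CPM, against 43.2 CPM at stage 5. In all, 4 of the 10 rose and 3 fell, where 28% of all genes were higher and 21.5% lower. All 3 nuclear elongation genes rose at stage 5, against 52.1% of all genes. The gene kuk (kugelkern) rose by 2.82 ± 0.14 to 3744 CPM, against 531 CPM at stage 4. The lamina genes Lam and LBR rose by 1.34 ± 0.07 and 1.29 ± 0.08. At stage 6, kuk had 3092 CPM and did not pass against stage 5 (-0.28 ± 0.12, adjusted p = 0.0531), but did under DESeq2 size factors (-0.29, adjusted p = 0.0308) and with the DESeq2 test (-0.29, adjusted p = 0.0251).

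**Figure D4:**
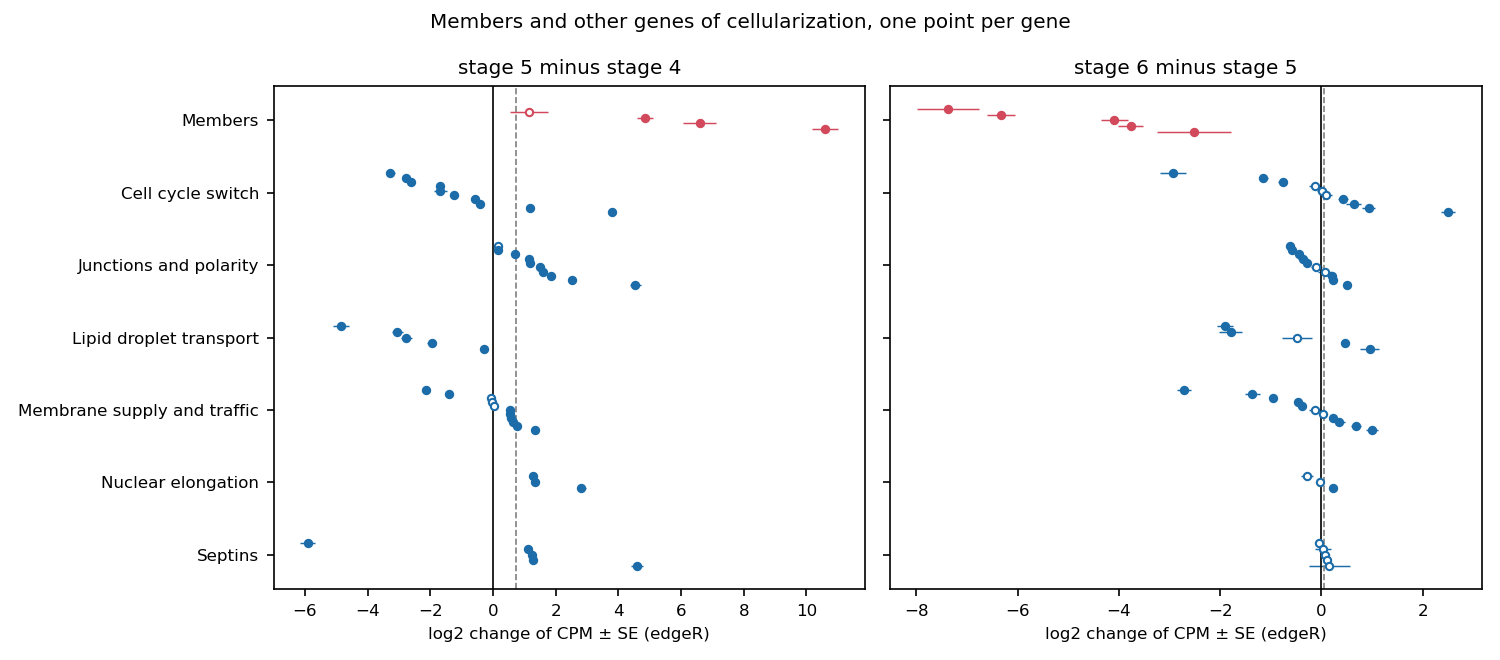
Log2 change with its SE for each tested member (red) and each pathway gene (blue), by list, at stage 5 minus stage 4 and stage 6 minus stage 5; filled points passed the test, open points did not, and the dashed line is the median of all genes. Z600 is left out of the stage 5 panel because stage 4 held 2 reads of it. At stage 6 all 5 members lie at or below -2.51, and of the pathway genes only twe at -2.93 and dah at -2.72 lie lower than that.

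The profile of the members over the 8 stages was also set beside that of other genes, as the correlation of stage means of log2 CPM with the members' median profile. The members themselves had r = 0.985 for Z600, 0.943 for nullo, 0.861 for slam, 0.855 for bnk and 0.812 for halo. Each member's own values enter that median profile, so these r cannot be compared with those of other genes. Of 2079 other genes that averaged 100 CPM or more at stage 5, the 10 most alike had r from 0.969 to 0.993. They share stages and libraries with the members, and the measure takes no account of the size of a change. Among them CG43184 (r = 0.993) had 1.16 ± 1.64, 146 ± 55.5 and 5.50 ± 2.34 CPM at stages 4, 5 and 6 (SD, n = 5, 9 and 5). Elba3 and Elba1, which encode subunits of an early chromatin insulator complex, had 0.64 and 0.517 CPM at stage 4, 478 ± 85.0 and 740.4 ± 87.7 CPM at stage 5, and 17.9 and 88.8 CPM at stage 6. A short peak was likewise seen for lncRNA:CR44504, with 1.02, 157 and 13.7 CPM at stages 4, 5 and 6, and for CG43725, with 0.0252, 205 and 3.92 CPM. The other five, CG12301, Axud1, Hsc70-4, eff and kra, had the same shape with a shallow peak, Hsc70-4 for example with 3039, 4645 and 4023 CPM at stages 4, 5 and 6.

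The nearest annotated neighbours of the members had levels of their own. Next to slam, Nepl4 (2197 bases away) and DIP-epsilon (486 bases away) had 26.6 and 4.39 CPM at stage 5, against 0.103 and 0.148 CPM at stage 4. The genes whose spans hold bnk and nullo, mesh and CG12541, had 11.5 and 4.75 CPM at stage 5, against 0.268 and 0 CPM at stage 4. Of the nullo reads at stage 5, 97.9% lay on its own strand. CG14427, 7706 bases from nullo, had 2.06, 272 and 61.4 CPM at stages 4, 5 and 6. Around halo, CG18132 and Or22a had 2.36 and 4.84 CPM at stage 5, against 0 and 0.0267 CPM at stage 4. Around Z600, gdl had 0.809, MsrA 43.8 and CG7841 9.75 CPM at stage 5, against 0.0986, 14.5 and 44.4 CPM at stage 4, and only CG7841 of these had the lower mean at stage 5. Next to Sry-alpha, janA and Sry-delta had 58.6 and 155 CPM at stage 5, against 25.5 and 52.6 CPM at stage 4. Gycbeta100B and CG1544 lie on either side of bnk, and CG4607 lies across nullo from CG14427. Like CG14427, these had a higher mean at stage 5 than at stages 4 and 6: Nepl4, CG12541, mesh, Gycbeta100B, CG18132, Or22a, gdl, MsrA and Sry-delta. Among these stages DIP-epsilon, CG1544, CG4607 and janA had their highest mean at stage 6, and CG7841 at stage 4.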

How the data were processed

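For each embryo the authors deposited a table of raw read counts by gene. STAR 2.5.3a and the build dm6 are named in the submitters' processing notes, and which gene annotation was counted is not stated in the sources used. The 4 summary entries of each table were left out. Gene reads were 13.1 to 26.5% of all reads, and reads in several genes 4.17 to 5.64% of those in 1 gene, several or none. Counts without regard to strand were used, since 8 libraries (embryos A, B, F and G of stages 13 and 15) carried no strand information and 46 did. Symbols came from annotation release 115 of BDGP6.54 for 17343 of 17481 identifiers. A single edgeR 4.0.16 quasi-likelihood fit in R 4.3.3 was made over all 54 embryos (1 mean per stage) after TMM scaling and filtering of low counts by filterByExpr, which kept 9783 genes. Adjusted p-values are two-sided Benjamini-Hochberg values over these genes, with a threshold of 0.05 in 7 stage comparisons. Levels are TMM-scaled CPM. Ratios within embryos had 0.5 reads added, and their exact tests and the correlations used SciPy 1.17.1 and NumPy 2.4.6 in Python 3.11.15. The edgeR and permutation tests were checked on simulated data. For edgeR few genes were changed, as many up as down, and none of these had low counts. Neither a shift of most genes nor members with few reads is covered by that check. Sry-alpha dropped out of the ratios and the correlations, which left 10 pairs and 20 relations. DESeq2 1.42.0, other scalings, no filter, strand, single pairs of stages and left-out embryos were tried. The members and lists were chosen with earlier results of these data known. Named by rule were the members, up to 4 called genes of each role with the largest change, the 10 genes most like the members' profile, and the nearest neighbours. Spike-in RNA was not used. A further list of furrow genes is not reported here.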

Additional observations from a re-analysis of the deposited data

Results flagged for a closer look

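Of 31 groups of 4 to 10 embryos with reads of a member, 4 held an embryo far from the rest. The rule took the gap to the next embryo over the range of the group. Chance gives about 1 in 20 by it, a share that need not hold for levels from few reads. In stage 6, embryo H had 158.2 CPM of slam, and the others 47.4 to 73.0 CPM. In stage 5, embryo B had 238.9 CPM of Z600 from 1291 reads, and the others 68.0 to 131 CPM. In stage 8, embryo B had 5.036 CPM of Z600 from 38 reads, and the others 1.08 to 2.14 CPM. In stage 10, embryo E had 0.7537 CPM of bnk from 2 reads, and the others 0 to 0.214 CPM.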

How the results depend on the processing

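Member counts called by edgeR stayed within 1.5 times of the values given under every alternative but one, the fit of stages 8 and 10 alone, which tested 2 members and called 2. Of the pair ratios between stages 8 and 10, 2 passed on gene-strand reads and 0 to 1 with an embryo left out, and of the stage 5 relations 1 passed without the 2 farthest embryos. Changes that did not pass turned sign in these cases: bnk at stage 8 against 6 without letter B (-0.30, chosen after seeing the data) or with 1 embryo left out (-0.27 to 0.64), nullo in the same step (-0.92 to 0.22), slam over nullo at stage 10 against 8 with 1 read added (-0.19) and bnk over Z600 with 0.1 reads added (-0.25). Without letter B the fall of nullo at stage 10 was not called (-2.81, adjusted p = 0.113). With DESeq2 the bnk changes at stages 10 against 8 (-2.73, adjusted p = 0.0192) and 15 against 10 (2.505, adjusted p = 0.0105) passed. Without stage 4 embryos G and H, stage 4 held no read of bnk and 1 read of halo, in embryo B. The fitted log2 changes at stage 5 were then 12.24 and 13.10, sizes that depend on the small count the fit adds. Over all genes tested, deviations from the stage means correlated weakly between same-letter embryos (-0.148 to 0.135). A likeness in fewer genes can go unseen there, and the embryos of letter B were higher in short genes at stages 5, 6 and 8. With the letter as a replicate block, nullo at stage 5 (1.70, adjusted p = 0.0173) and bnk at stages 10 (-2.70, 0.0454) and 15 (2.45, 0.0269) passed, and no other member's call changed. The cause of these shifts was not tested. At stages 4, 6 and 8, nullo and bnk rested on 13 to 64 reads per stage, and at stage 10 on 1 and 4 reads. This limits what can be said of their later loss.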
